A study of Mus musculus with 8 samples.

Results

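Ginsenoside Re, a plant saponin, was compared with its vehicle in mouse C2C12 myoblasts. The comparison used 6 of the 8 libraries in the series, 3 labelled Re and 3 labelled as vehicle controls, all from 1 deposited expression table. C2C12 is an established line of immortalized mouse myoblasts, and every library used here was labelled wild type. The control cells had DMSO and the treated cells had Ginsenoside Re. No dose, treatment time or culture density was given in the sources used here, and nothing said that libraries of a group came from separate cultures. The p-values below therefore measure the spread between these libraries, which may be technical. Of the 52338 genes in the table, 23902 were above 0 in at least 1 library, and the comparison covered the 9274 genes that averaged 5 TPM or more. TPM, a length-normalized share of the transcripts in a library, sums to a fixed total over all transcripts.

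Myoblasts are the proliferating precursors of skeletal muscle. Factors such as Myod1 and Myf5 commit them to the lineage, and on withdrawal of growth factors they leave the cell cycle, turn on Myog, fuse and build sarcomeres. Ginsenosides are triterpenoid glycosides of ginseng, Re is one of the main ones of the berry, and they have been studied in muscle cells for effects on glucose uptake, insulin and AMPK signalling, mitochondria and oxidative stress. Genes of these processes were grouped into lists, next to lists for cell identity, structure, growth and stress, and all lists were chosen with earlier results of these data known.

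The deposited values of a library summed to between 642180 and 743270 TPM, and mitochondrially encoded genes made up 13.6 to 18.1% of the sum. TPM over all transcripts sums to 1000000. Where the remainder lies was not given, and the part of this unequal shortfall in the results was not tested. Read depth cannot be recovered from TPM and is unknown here. Between 16527 and 18548 genes were above 0 in the DMSO libraries and between 18558 and 19006 in the Re libraries, so the groups did not overlap in this number, and its part in the results was not tested. DMSO replicate 2 had the smallest sum and the fewest genes above 0. Each library was divided by its median ratio to the mean of each gene before any comparison, and all TPM values below are after this step. Without it, the median gene was 0.108 higher in Re on the log2 scale, and the median of every gene list with at least 2 tested members was above 0, from 0.015 to 0.154, so each direction below is relative to the median gene.

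The libraries had the profile of undifferentiated myoblasts. Of the 15 myoblast markers, 12 passed the level filter, and the markers summed to 424.7 to 437.5 TPM in DMSO and 396.6 to 407.1 TPM in Re. Pax7, the satellite cell factor, was at most 0.15 TPM, and the markers Cav3 and Fgfr4 were also at or near 0. The 14 markers of differentiated myotubes summed to 27.9 to 35.1 TPM in DMSO and 23.95 to 28.01 TPM in Re, most of it Acta1, while Myog did not exceed 0.34 TPM. The 10 endothelial markers summed to 1.60 to 2.20 TPM in DMSO and 1.35 to 2.89 TPM in Re, with 4 of them at 0 in every library. The 10 immune markers summed to 11.1 to 13.95 TPM in DMSO and 12.6 to 13.9 TPM in Re, mostly Cd14, with the pan-leukocyte gene Ptprc at 0. The 10 epithelial markers summed to 22.4 to 28.2 TPM in DMSO and 25.8 to 27.2 TPM in Re, mostly Krt14, with Epcam at 0. The 10 neural and glial markers summed to 120.3 to 146.1 TPM in DMSO and 126.1 to 133.1 TPM in Re, mostly Tubb3, with Rbfox3 at 0. The 10 adipocyte markers summed to 13.6 to 17.4 TPM in DMSO and 13.5 to 14.01 TPM in Re, the 10 osteoblast and chondrocyte markers to 19.3 to 24.9 and 19.7 to 22.1 TPM, and the 10 fibroblast markers to 18.5 to 21.6 and 18.6 to 22.03 TPM. The sums of these 7 other cell types overlapped between Re and DMSO.

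No gene differed between Re and DMSO at an adjusted p below 0.05 in limma, so 0% of the genes were called. The smallest adjusted p, that of Mast3, was 0.97. At an unadjusted p below 0.05 there were 440 genes, 4.74% of those tested, where 464 would be expected by chance. Of these, 191 (2.06%) were higher in Re and 249 (2.68%) were lower. limma with robust variances gave 430 such genes and limma without a variance trend gave 458, and neither called a gene. The 3 Re values lay entirely above or below the 3 DMSO values for 927 genes, 10% of those tested, with 475 higher (5.12%) and 452 lower (4.87%). Only 22 genes (0.237%) were both free of overlap and at least 1.5-fold apart, 15 of them higher (0.162%) and 7 lower (0.0755%).

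Libraries of 1 treatment were no closer to each other than to the other treatment. The median absolute log2 difference between 2 libraries was 0.126 to 0.165 within DMSO, 0.108 to 0.142 within Re and 0.105 to 0.171 between the groups. The medians of these 3 sets were 0.138, 0.128 and 0.134.

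The data bound the size of most differences. The 95% confidence interval of the Re minus DMSO difference lay inside 1.5-fold either way for 8131 genes (87.7%) and inside 2-fold for 9031 genes (97.4%). It lay inside 1.25-fold for 4114 genes (44.4%). The interval reached a median of 0.251 to each side of the difference on the log2 scale, with 0.332 for genes at 5 to 10 TPM and 0.19 for genes at 100 TPM or more. The 5th and 95th percentiles of the differences were -0.25 and 0.23. Differences of at least 1.5-fold were seen for 130 genes and of at least 2-fold for 69. Of the 130, only the 22 above had groups that did not overlap. These differences are between means of log2(TPM + 1), which understates the change of genes at low levels.

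**Figure D1:**
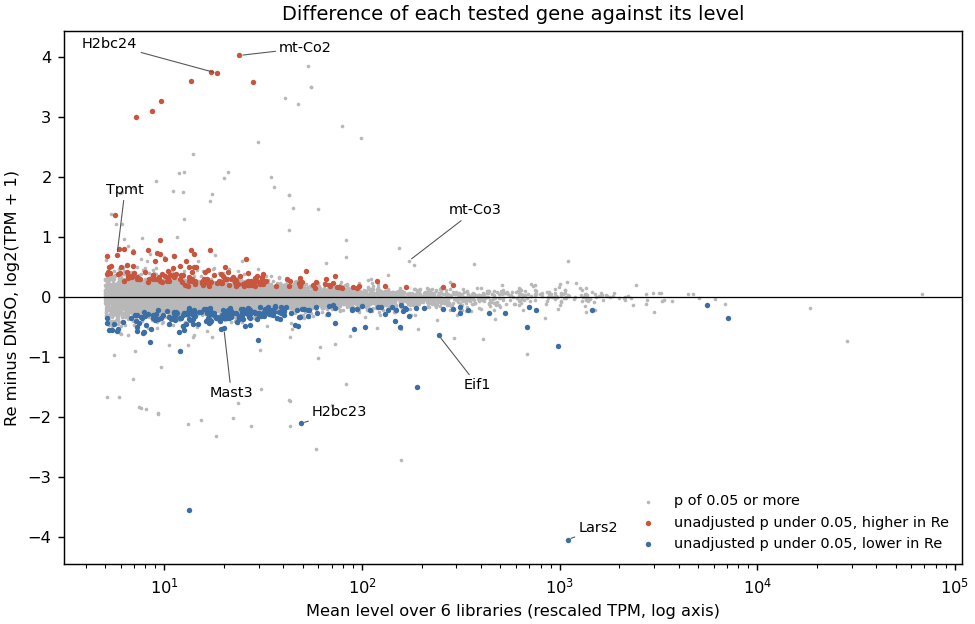
Difference between Re and DMSO (y axis, log2 of TPM + 1) against the mean level over 6 libraries (x axis, rescaled TPM, log axis) for the 9274 genes, 1 point per gene, coloured where the unadjusted limma p is below 0.05. Most points lie close to 0. Lars2 and H2bc24, among the few far from it, have values that scatter among libraries of 1 group.

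Among the genes higher in Re, the 10 with the smallest p were Eif1ax, Acadsb, Spindoc, Gas5, Tpmt, Myo9a, Rsrp1, Sirt4, Pnpla6 and Hmgn3. All had an adjusted p of 0.972 in limma, so none passed the test, and having 3 values above the other 3 is a property of 5.12% of all genes tested. Eif1ax encodes the initiation factor eIF1A, which helps the small ribosomal subunit find the start codon. It was at 48.1, 41.6 and 42.6 TPM in DMSO and at 57.3, 62.8 and 60.2 TPM in Re, a difference of 0.44 (SE 0.08, 95% interval 0.25 to 0.63). All 3 treated libraries were above all 3 controls. Acadsb, a mitochondrial acyl-CoA dehydrogenase of isoleucine breakdown, was at 16.3, 17.0 and 16.3 TPM in DMSO and 26.4, 20.4 and 24.8 TPM in Re, a difference of 0.50 (SE 0.10).

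Gas5, a noncoding host transcript of small nucleolar RNAs that accumulates in growth-arrested cells, was at 69.3, 59.1 and 63.4 TPM in DMSO and 85.5, 80.7 and 79.0 TPM in Re, a difference of 0.35 (SE 0.08). Sirt4, a mitochondrial sirtuin, was at 5.73, 7.51 and 7.51 TPM in DMSO and 10.7, 9.5 and 12.8 TPM in Re, a difference of 0.60 (SE 0.15). Myo9a, an unconventional myosin, was at 5.43, 5.46 and 5.49 TPM in DMSO and 7.19, 8.80 and 8.97 TPM in Re, a difference of 0.52 (SE 0.12). The groups did not overlap in any of these genes, and in Sirt4 and Myo9a the treated libraries were the more spread.

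Tpmt, thiopurine methyltransferase, had the largest difference of the 10, 0.70 (SE 0.16), with 4.14, 4.71 and 3.59 TPM in DMSO and 7.78, 8.16 and 6.10 TPM in Re. Its DMSO level was below the filter, so it was compared because of its Re level, and 16.2% of its transcript sequence recurs in other genes. The other 4 were Spindoc (0.39), Rsrp1 (0.31), the esterase gene Pnpla6 (0.50) and the nucleosome-binding Hmgn3 (0.25), all without overlap between groups.

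Among the genes lower in Re, the 10 with the smallest p were Mast3, Rbm41, Abhd16a, Lyrm2, Mtx2, Rusc2, H4c14, H3c11, Phlda1 and Snhg16, and none passed the test. Mast3, a microtubule-associated serine/threonine kinase, had the smallest p of all genes (0.000105 before adjustment and 0.97 after it, limma). It was at 23.4, 24.7 and 23.2 TPM in DMSO and 15.7, 16.5 and 16.4 TPM in Re, a difference of -0.52 (SE 0.07, 95% interval -0.68 to -0.36). Both groups were tight and far apart. Rbm41, an RNA-binding protein gene, was at 8.74, 9.68 and 8.17 TPM in DMSO and 5.32, 5.62 and 6.11 TPM in Re, a difference of -0.56 (SE 0.11). Mtx2, metaxin of the outer mitochondrial membrane, was at 29.8, 28.8 and 30.3 TPM in DMSO and 23.6, 23.6 and 25.0 TPM in Re, a difference of -0.29 (SE 0.07).

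Among the histone genes, H4c14 was at 38.9, 46.4 and 45.2 TPM in DMSO and 33.2, 32.9 and 34.5 TPM in Re, a difference of -0.36 (SE 0.08). H3c11 was at 491, 484 and 463 TPM in DMSO and 393, 426 and 377 TPM in Re, a difference of -0.27 (SE 0.07). Their status differs, since 87.6% of the H3c11 transcript sequence recurs in other genes, against 1.0% for H4c14, and the split of reads among H3 copies is uncertain. Phlda1, a growth factor induced gene, was at 42.6, 38.8 and 42.9 TPM in DMSO and 29.4, 32.3 and 35.4 TPM in Re. Its difference was -0.35 (SE 0.09), and 29.3% of its sequence recurs in another gene. The remaining 4 were the lipase gene Abhd16a (-0.34), the LYR motif gene Lyrm2 (-0.37), Rusc2 (-0.34) and the noncoding Snhg16 (-0.32). Snhg16 is also a host of small nucleolar RNAs and lay opposite to Gas5, and 18.1% of its sequence recurs in other genes.

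**Figure D2:**
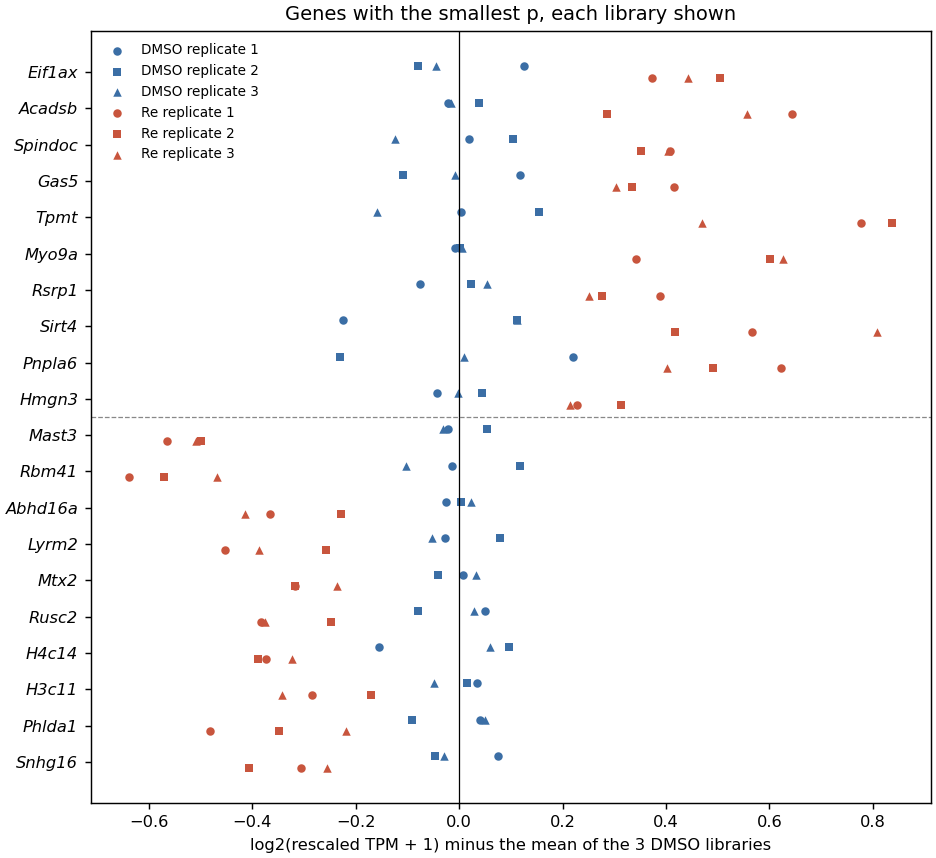
Level of the 10 genes with the smallest p in each direction (rows) in each of the 6 libraries, as log2(TPM + 1) minus the mean of the 3 DMSO libraries (x axis), DMSO in blue and Re in red, replicate by marker shape. The Re points lie to 1 side of all DMSO points in all 20 genes, with Mast3 and Eif1ax among the most separated, and none of the 20 passes the adjusted threshold.

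Genes of the actin cytoskeleton and cell adhesion were, as a list, slightly lower in Re after rescaling. Of the 23 genes, 21 had a lower mean in Re, where 49.8% of all genes did, and the median difference was -0.10 against 0.001 over all genes. In the deposited values without rescaling, 9 of the 23 were lower and the median was 0.015, although 20 of the 23 still lay below the median of all genes. None passed the adjusted test. Of the list, 5 genes had an unadjusted p below 0.05, all lower, where 2.68% of all genes did. The list was chosen with earlier results of these data known, so its counts are a description. Leaving out 1 library at a time left 19 to 22 of the 23 lower. The exceptions were Vim and Flna, named here after their values were seen.

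The cytoplasmic actin gene Actb was at 5782, 5877 and 5854 TPM in DMSO and 5392, 5295 and 5285 TPM in Re, a difference of -0.13 (SE 0.06). The smooth muscle type actin Acta2, which proliferating myoblasts also express, was at 1488, 1585 and 1608 TPM in DMSO and 1273, 1402 and 1373 TPM in Re, a difference of -0.21 (SE 0.07). Zyx, zyxin of focal adhesions, was at 279, 274 and 271 TPM in DMSO and 227, 231 and 257 TPM in Re, a difference of -0.21 (SE 0.07). The groups did not overlap in any of these, nor in Des, the muscle intermediate filament desmin, with 125, 131 and 126 TPM in DMSO and 114, 121 and 107 TPM in Re (-0.16, SE 0.07). Actn4, the actin crosslinker alpha-actinin 4, had the largest difference of the list, -0.50 (SE 0.16), but its groups overlapped, with 99.3, 136 and 126 TPM in DMSO and 82.3, 70.6 and 103 TPM in Re. For 21 of the 23 genes the 95% interval stayed inside 1.5-fold.

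Averaged over the 23 genes, the list lay 0.04, 0.05 and 0.06 above its mean over 6 libraries in the DMSO libraries and 0.08, 0.08 and 0.01 below it in the Re libraries. The treated library closest to the controls was Re replicate 3. Among the 31 lists with at least 5 tested members, list means of the groups failed to overlap in 3, all lower in Re, and in 0 that were higher. Single genes failed to overlap in 10% of cases, so 3 of 31 lists is near that share. The other 2 were the myogenic regulators and the myoblast markers, which have 4 genes in common. Des belongs to both the actin cytoskeleton list and the myoblast markers. Among the 39 lists with at least 1 tested member, 5 failed to overlap, all lower in Re. These include the sarcomere genes and the myotube markers, the latter by Acta1 alone.

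Of the 27 myogenic regulators and fusion genes, 17 passed the filter, and 15 of these had a lower mean in Re, with a median difference of -0.08. In the deposited values without rescaling, 8 of the 17 were lower and the median was 0.035, with 15 below the median of all genes. Mef2d, a partner of the myogenic factors, was at 17.2, 19.5 and 19.4 TPM in DMSO and 15.1, 14.8 and 16.4 TPM in Re (-0.26, SE 0.08). Eya1, a transcriptional coactivator in the muscle lineage, went the other way, with 7.02, 7.82 and 7.62 TPM in DMSO and 8.56, 9.14 and 9.44 TPM in Re (0.24, SE 0.10). These were the 2 members with an unadjusted p below 0.05 and the 2 whose groups did not overlap, where 4.74% and 10% of all genes did so.

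Myod1, the commitment factor of the lineage, was at 11.7, 13.7 and 12.9 TPM in DMSO and 9.88, 11 and 12.7 TPM in Re, a difference of -0.18 with a 95% interval from -0.45 to 0.08. Re replicate 3 lay inside the DMSO range. Myf5, its partner in commitment, was at 32.2, 34.1 and 33.5 TPM in DMSO and 32.3, 31.7 and 31.8 TPM in Re (-0.06), and 0.05 higher without rescaling. Cdh15, the myoblast adhesion protein M-cadherin, differed by -0.17 with overlapping groups. All 17 genes had an interval inside 1.5-fold, so a larger change of any of them lay outside the 95% interval. In bulk RNA, fewer cells expressing such a gene and less of its RNA per cell cannot be told apart.

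Of the 25 sarcomere and contraction genes, 4 passed the filter, Acta1, Tnnt2 and the tropomyosin genes Tpm1 and Tpm2, and 3 were at 0 in every library. Both tropomyosin genes were abundant, Tpm1 at 919, 1008 and 985 TPM in DMSO and 901, 1014 and 989 TPM in Re, and Tpm2 at 477, 535 and 471 TPM in DMSO and 428, 491 and 488 TPM in Re, with overlapping groups. All 4 had a lower mean in Re, with a median of -0.06 that became 0.002 without Re replicate 1 and 0.054 without rescaling. Acta1, skeletal muscle actin, was at 33.95, 25.96 and 26.04 TPM in DMSO and 25.4, 24.4 and 21.8 TPM in Re (-0.25, SE 0.12). Tnnt2 was at 43.9, 40.4 and 44.1 TPM in DMSO and 38.7, 40.3 and 46.5 TPM in Re, with the extremes of both sides in the treated libraries (-0.04, and 0.07 without rescaling).

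**Figure D3:**
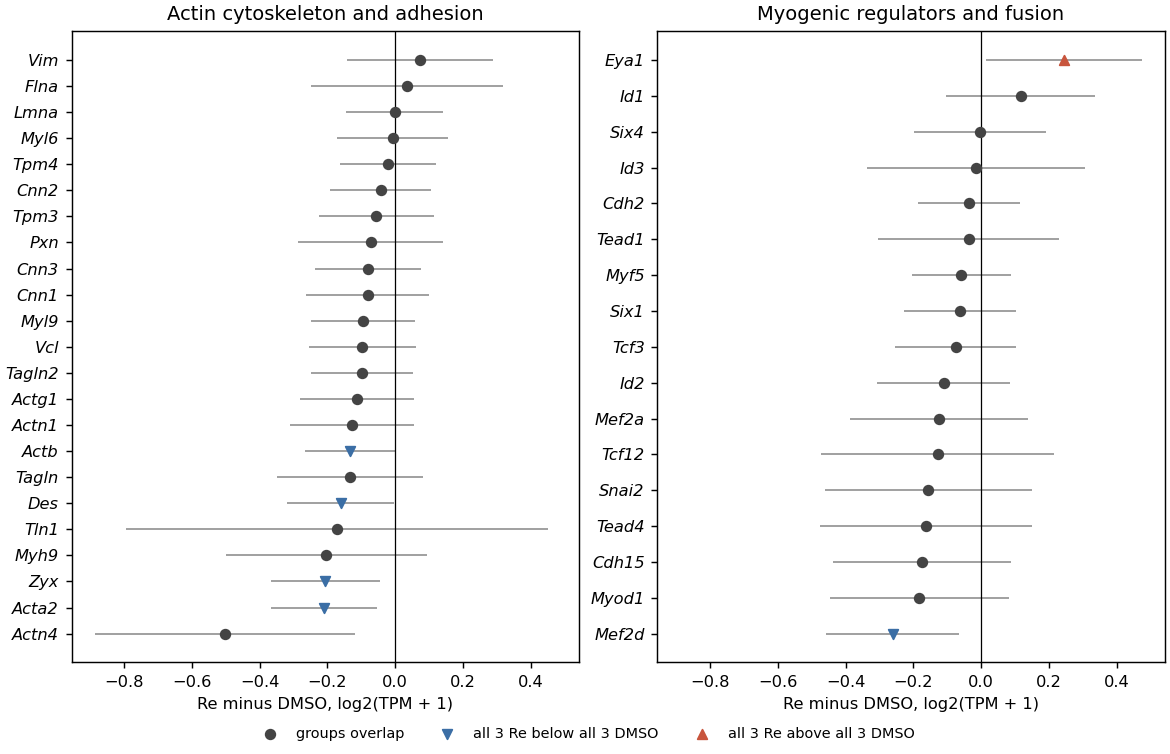
Difference between Re and DMSO (x axis, log2 of TPM + 1) with its 95% confidence interval from limma for the 23 tested genes of the actin cytoskeleton and adhesion list (left) and the 17 of the myogenic list (right), coloured where the 3 Re values lie all below or all above the 3 DMSO values. After rescaling, 21 of 23 and 15 of 17 points lie left of 0, and in the deposited values 9 and 8 do.

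Genes of energy metabolism did not move together. In the list of AMPK and mitochondrial biogenesis, 11 of 21 genes were higher in Re and 10 lower, with a median of 0.01. Tfam, the packaging and transcription factor of mitochondrial DNA, was at 26.4, 25.8 and 24.3 TPM in DMSO and 27.4, 38.1 and 34.3 TPM in Re (0.36, SE 0.12). Mfn1, mitofusin 1, was at 15.3, 28.01 and 17.8 TPM in DMSO and 27.0, 29.6 and 38.0 TPM in Re (0.64, SE 0.22), with overlapping groups. Prkaa1, the catalytic AMPK subunit of these cells, was at 41.1, 41.2 and 42.1 TPM in DMSO and 42.6, 42.5 and 42.7 TPM in Re, so the groups differed by 0.04 (interval -0.10 to 0.18). Prkaa2 (at most 1.35 TPM) and Ppargc1a, the coactivator PGC-1alpha (at most 0.63 TPM), were under the filter.

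Of 80 listed symbols of nuclear oxidative phosphorylation genes, 69 were found among the deposited genes, and all 69 were tested. They were higher in Re in 47 of 69 cases, against 50.2% of all genes, with a median of 0.04. Ribosomal protein genes were higher in 53 of 79, with a median of 0.03. Both lists split the libraries across treatments: DMSO replicate 2, DMSO replicate 3 and Re replicate 3 had the lowest means of the 6 in each list. The same 3 libraries had the largest share of mitochondrially encoded RNA, from 16.9 to 18.1%, and its part in these counts was not tested. Without Re replicate 1 the counts were 39 of 69 and 45 of 79. Of the first list only the complex I subunit Ndufs5 had an unadjusted p below 0.05. Of the ribosomal list none had, where 4.74% of all genes did. Ndufs5 was at 115, 127 and 122 TPM in DMSO and 137, 145 and 133 TPM in Re (0.18, SE 0.07, 21.7% of its sequence shared).

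The 13 mitochondrially encoded genes split 5 higher to 8 lower. mt-Atp8, a subunit of ATP synthase, was at 7507, 7694 and 8439 TPM in DMSO and 5430, 5924 and 7416 TPM in Re (-0.34, SE 0.12). In mt-Nd2, mt-Nd4, mt-Nd5, mt-Nd6, mt-Cytb and mt-Co1, chosen after their values were seen, Re replicate 1 was the lowest and Re replicate 3 the highest library of the 6, so treated libraries spanned the controls. Only 3 of the 13 had an interval inside 1.5-fold.

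In fatty acid oxidation, 12 of 22 genes were higher and 10 lower (median 0.01). Cpt2, the inner membrane carnitine palmitoyltransferase, was at 12.3, 18.0 and 14.9 TPM in DMSO and 12.3, 9.31 and 10.3 TPM in Re (-0.45, SE 0.16). Etfa, which takes electrons from the acyl-CoA dehydrogenases, was at 37.6, 49.3 and 41.1 TPM in DMSO and 34.8, 35.1 and 35.2 TPM in Re (-0.27, SE 0.10). In branched-chain amino acid breakdown, which holds Acadsb, 9 of 19 were higher and the median was -0.02. Of the 25 glycolysis and glucose uptake genes, 19 passed the filter. Of these 19, 7 were higher, with a median of -0.002 and every interval inside 1.5-fold. None of them had an unadjusted p below 0.05, where 4.74% of all genes did. Gapdh, the glycolytic dehydrogenase often used as a reference gene, was at 2293, 2514 and 2517 TPM in DMSO and 1955, 2286 and 2498 TPM in Re (-0.13, interval -0.36 to 0.11), with 25.1% of its sequence recurring in other genes.

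Genes of cholesterol and fatty acid synthesis were lower in 18 of 30, with a median of -0.01. Srebf2, the transcription factor that drives sterol synthesis, was at 62.0, 62.3 and 62.3 TPM in DMSO and 54.4, 53.1 and 58.1 TPM in Re (-0.17, SE 0.06). Msmo1, a sterol demethylation enzyme, was at 51.4, 57.6 and 51.5 TPM in DMSO and 46.1, 46.1 and 46.7 TPM in Re (-0.20, SE 0.07). The groups did not overlap in either, and 4 members of the list were lower without overlap against 1 higher, where 4.87% and 5.12% of all genes tested were.

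For insulin and IGF signalling, 12 of 22 genes were higher and 10 lower (median 0.01). No member had an unadjusted p below 0.05, where 4.74% of all genes did. Akt1, the kinase at the centre of the pathway, was at 106, 114 and 97.2 TPM in DMSO and 105, 102 and 102 TPM in Re, so the groups differed by -0.03 (interval -0.20 to 0.14), and 0.08 higher without rescaling. Mtor scattered widely, with 15.8, 8.04 and 14.8 TPM in DMSO and 13.0, 10.5 and 13.0 TPM in Re, so its interval ran from -0.58 to 0.52 (0.07 higher without rescaling). Slc2a1, the basal glucose transporter GLUT1, differed by -0.04 (interval -0.22 to 0.14) and by 0.07 without rescaling. Slc2a4, the insulin-responsive GLUT4, was at most 0.63 TPM and was not tested.

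Of the 25 atrophy and FoxO genes, 20 passed the filter. Of these 20, 11 were higher in Re (median 0.03), and every interval lay inside 1.5-fold. Trim63, Foxo1, Fbxo31, Mstn and Klf15 were under the filter and were not tested. Fbxo32 encodes atrogin-1, a ubiquitin ligase of muscle wasting, and was at 4.84, 5.27 and 4.84 TPM in DMSO and 5.21, 5.36 and 5.15 TPM in Re (0.06, interval -0.23 to 0.35). Fst, the myostatin antagonist follistatin, differed by 0.16 (interval -0.11 to 0.44) with overlapping groups.

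Of the ATF4 and unfolded protein response genes, which answer amino acid shortage and misfolded protein, 26 of 40 were higher in Re with a median of 0.03. The groups failed to overlap in 7, all higher, where 5.12% of all genes did, and 3 had an unadjusted p below 0.05, all higher, where 2.06% of all genes did. Pck2, mitochondrial phosphoenolpyruvate carboxykinase, was at 26.9, 27.2 and 25.0 TPM in DMSO and 33.3, 34.2 and 28.8 TPM in Re (0.27, SE 0.09). Trib3, a pseudokinase induced by ATF4, was at 8.14, 7.14 and 9.76 TPM in DMSO and 9.83, 11.8 and 11.6 TPM in Re (0.38, SE 0.13). Aldh1l2, of mitochondrial folate metabolism, was at 23.8, 23.7 and 24.05 TPM in DMSO and 25.1, 28.5 and 31.3 TPM in Re (0.23, SE 0.09). As a list the groups overlapped, since Re replicate 1 lay within the DMSO range, and 22 to 29 of the 40 were higher when 1 library was left out.

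Heat shock genes were higher in 14 of 23 (median 0.03). Hspa4l, an Hsp110 chaperone, was at 39.6, 40.3 and 39.2 TPM in DMSO and 45.7, 44.7 and 45.5 TPM in Re (0.18, SE 0.06), a small gap between tight groups. NRF2 and antioxidant genes were higher in 18 of 34 (median 0.01). Within them the peroxiredoxin gene Prdx5 was at 124, 98.9 and 104 TPM in DMSO and 135, 126 and 129 TPM in Re (0.26, SE 0.09), and the pentose phosphate gene Taldo1 differed by 0.18 (SE 0.07). Nfe2l2, which encodes NRF2 itself, differed by -0.06 (interval -0.23 to 0.10) and by 0.05 without rescaling, and its target Hmox1, heme oxygenase, differed by 0.10 (interval -0.06 to 0.26), both with overlapping groups. The p53 targets were higher in 11 of 21, with Cdkn1a, the cell cycle inhibitor p21, at 76.4, 80.2 and 72.5 TPM in DMSO and 72.8, 64.9 and 68.7 TPM in Re (interval -0.32 to 0.02).

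**Figure D4:**
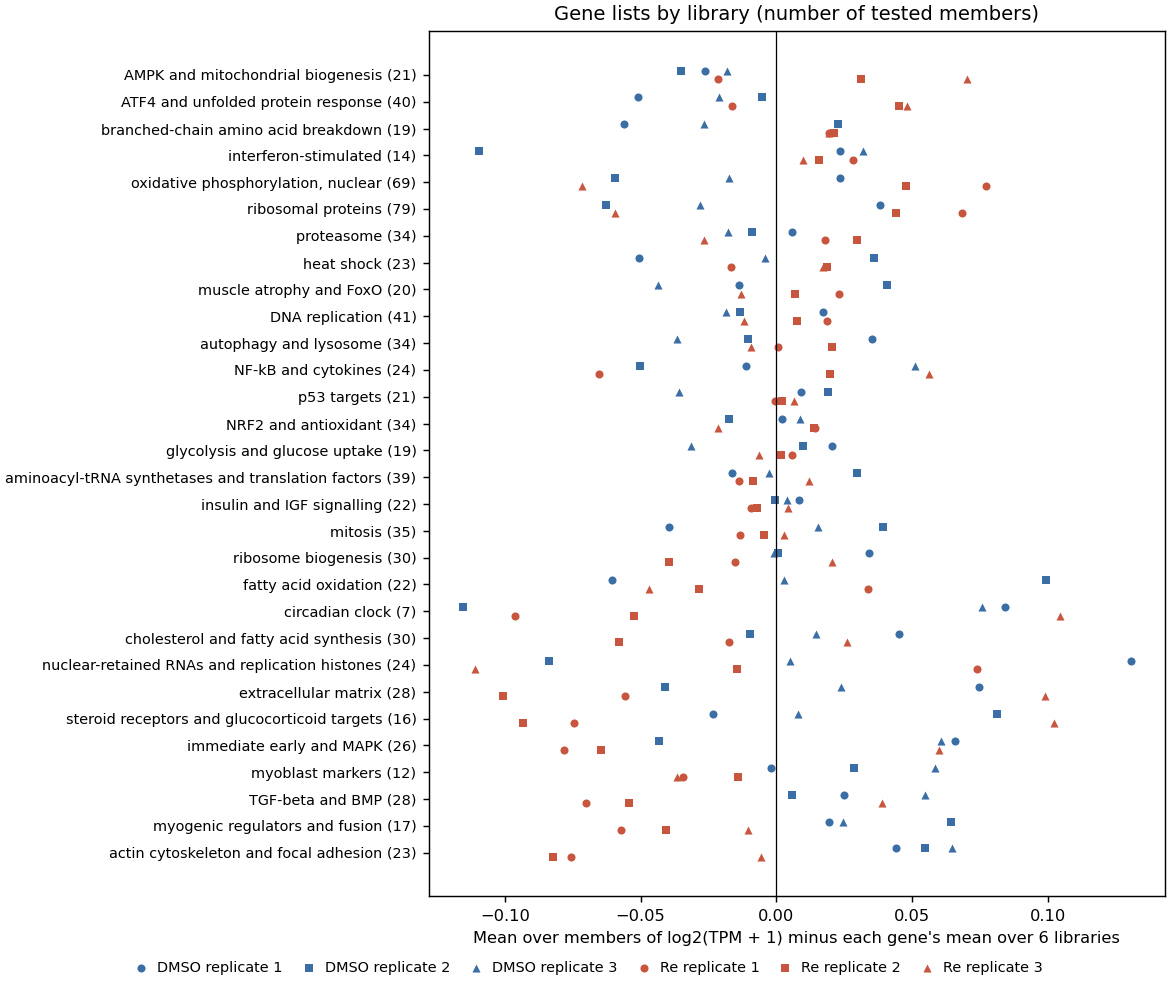
Mean over the tested members of each of 30 gene lists (rows, number of members in parentheses) of log2(TPM + 1) minus the gene's mean over 6 libraries (x axis), 1 point per library, DMSO in blue and Re in red. The groups separate only in the 3 lists of the actin cytoskeleton, myogenic regulators and myoblast markers, after rescaling.

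The tested members of 2 lists of protein synthesis beyond the ribosome were close to balanced. Of 56 listed symbols of synthetases and translation factors, 39 were found among the deposited genes. These 39 split 20 higher to 19 lower, with Eif1ax at one end and Eif1 at the other. Lars2, described below, was not among them. Eif5a, the hypusine-bearing elongation factor, was at 741, 755 and 726 TPM in DMSO and 679, 638 and 662 TPM in Re (-0.17, SE 0.06). Ribosome biogenesis genes were lower in 17 of 30, with Gar1 of the box H/ACA complex at 34.3, 30.9 and 29.3 TPM in DMSO and 25.6, 26.05 and 26.6 TPM in Re (-0.26, SE 0.08). Proteasome genes were higher in 19 of 34 and autophagy and lysosome genes in 21 of 34, with medians of 0.01 and 0.02. Neither list had a member at an unadjusted p below 0.05, where 4.74% of all genes were.

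Proliferation genes had narrow intervals. DNA replication genes were higher in 23 of 41 (median 0.01) and mitosis genes in 16 of 35 (median -0.01). At an unadjusted p below 0.05 in limma there were 0 members, where 4.74% of all genes were. The interval stayed inside 1.5-fold for all 41 replication genes and 34 of the 35 mitosis genes. A list of nuclear-retained RNAs and replication histones also held host transcripts of small nucleolar RNAs and the linker histone H1f0. In this mixed list 17 of 24 were lower (median -0.09), yet the median was 0.01 without Re replicate 3. Its 3 members at an unadjusted p below 0.05 were all higher, where 2.06% of all genes were. They were Gas5 and 2 other host transcripts of small nucleolar RNAs, Snhg8 (0.15, SE 0.06) and Snhg12 (0.30, SE 0.13, with overlapping groups). The host transcripts Snhg1, Snhg3 and Snhg5 of the same list differed by 0.07, -0.01 and 0.03, with overlapping groups.

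Immediate early and MAPK genes were lower in 18 of 26 (median -0.07). Egr1, a serum-induced transcription factor, was at 9.44, 9.60 and 11.2 TPM in DMSO and 6.43, 8.24 and 8.35 TPM in Re (-0.36, SE 0.13), and Spry2, a feedback inhibitor of the pathway, differed by -0.16 (SE 0.08). TGF-beta and BMP genes were lower in 21 of 28 (median -0.05), with the ligand Tgfb1 at 19.1, 17.5 and 20.7 TPM in DMSO and 14.4, 14.6 and 18.0 TPM in Re (-0.28, SE 0.11). Extracellular matrix genes were lower in 18 of 28 (median -0.03). With limma, 0 of them had an unadjusted p below 0.05, where 4.74% of all genes did. In all 3 lists the mean of Re replicate 3 lay within or above the control range, while those of Re replicates 1 and 2 lay below every control. Without rescaling the 3 medians were 0.04, 0.06 and 0.08, each below the 0.108 of all genes.

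Genes of steroid hormone action were lower in 12 of 16 tested (median -0.05), with the coactivator Ncoa3 at 8.57, 8.47 and 10.4 TPM in DMSO and 7.06, 7.10 and 7.87 TPM in Re (-0.28, SE 0.12). Nr3c1, the glucocorticoid receptor, was at 19.9, 19.0 and 17.8 TPM in DMSO and 18.8, 16.9 and 19.0 TPM in Re (-0.05, interval -0.24 to 0.14), and 0.06 higher without rescaling. Esr1, the estrogen receptor, was at 0.89 to 1.67 TPM and was not tested. NF-kB and cytokine genes split 12 to 12 and interferon-stimulated genes 7 to 7. Of 7 clock genes, Tef was at 25.5, 19.0 and 23.3 TPM in DMSO and 18.0, 17.6 and 16.9 TPM in Re (-0.34, SE 0.11).

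Several of the largest differences belonged to genes whose values jumped among libraries of 1 treatment or were shared among near-identical copies. Lars2, mitochondrial leucyl-tRNA synthetase, was at 54.1, 4267 and 2098 TPM in DMSO and 72.8, 29.0 and 49.1 TPM in Re, so DMSO replicate 1 was like the treated libraries. Its difference of -4.04 (SE 1.48) had an adjusted p of 0.972 in limma, and without DMSO replicate 1 it was -5.96 with an adjusted p of 0.03. mt-Rnr1, the small mitochondrial ribosomal RNA, was likewise highest in those 2 libraries, at 21295, 46187 and 38886 TPM in DMSO and 16174, 16862 and 30705 TPM in Re.

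The histone gene H2bc23 was at 74.7, 67.2 and 72.3 TPM in DMSO and 64.1, 11.4 and 4.91 TPM in Re, and H2bc24 at 0, 0.41 and 0 TPM in DMSO and 0.02, 52.4 and 58.4 TPM in Re. The drop of the first and the gain of the second fell in the same 2 treated libraries. Of their transcript sequences, 97.3% and 88.7% recur in other genes, and the sum of the pair was 74.7, 67.6 and 72.3 TPM in DMSO and 64.2, 63.8 and 63.3 TPM in Re. Without Re replicate 1, H2bc24 had an adjusted p of 0.00167 in limma.

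The value of mt-Co2 was 0 in the 3 DMSO libraries and in Re replicate 2, and 39.6 and 104 TPM in Re replicates 1 and 3. All of its sequence (100%) recurs in nuclear copies, and without Re replicate 2 its adjusted p in limma was 0.0364. mt-Co3, with 99.9% shared, was at 19.9, 17.1 and 524 TPM in DMSO and 137, 319 and 14.6 TPM in Re. The values of these genes cannot be assigned to 1 copy, and no fold is given against a group listed at 0.

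Other large differences at an unadjusted p below 0.05 came without jumps as large as those above, although Eif1, Pakap and Dpm1 scattered within DMSO. Eif1, which works with eIF1A in start codon choice, was at 230, 378 and 286 TPM in DMSO and 215, 161 and 190 TPM in Re (-0.64, SE 0.19), opposite in direction to Eif1ax, with 19.2% of its sequence shared. Pakap was at 7.0, 14.4 and 11.6 TPM in DMSO and 6.46, 6.0 and 5.15 TPM in Re (-0.76, SE 0.24), with 38.2% of its sequence shared. Lrch4 (-0.58) shares 71.7% of its sequence with a predicted gene, and Ift172 (-0.58) had overlapping groups. On the higher side, Dpm1, a subunit of dolichol-phosphate mannose synthase, was at 9.02, 13.5 and 7.19 TPM in DMSO and 14.2, 16.7 and 21.5 TPM in Re (0.78, SE 0.23). Dancr (0.80) and Mrm1 (0.79) were below the filter in DMSO and were compared because of their Re level.

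**Figure D5:**
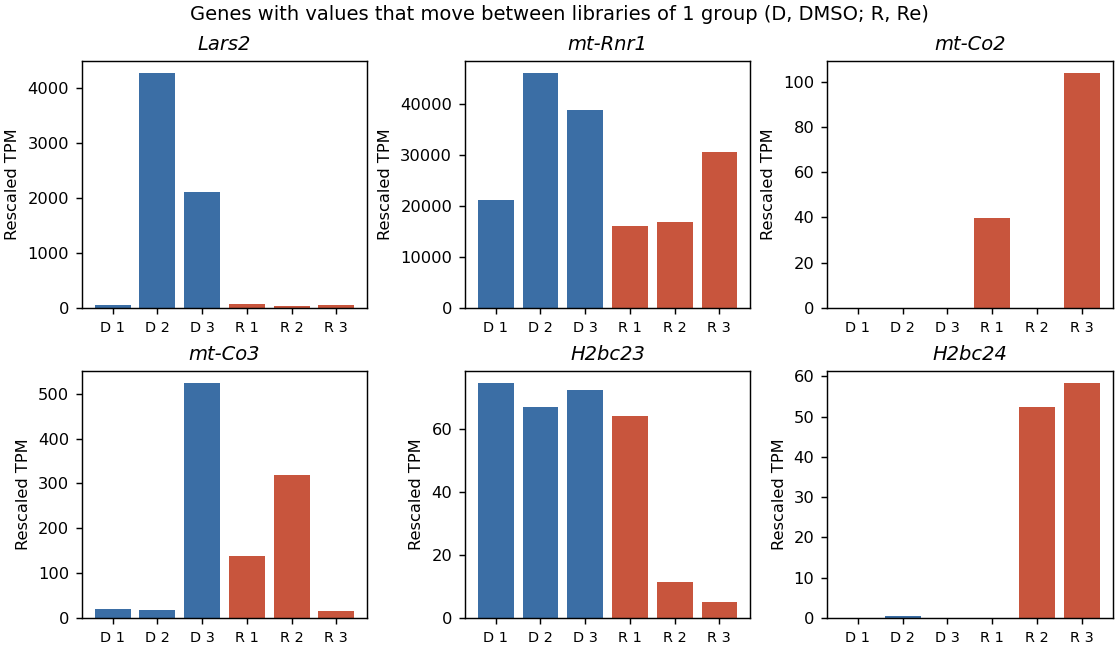
Rescaled TPM (y axis, bars from 0) of 6 genes in each library, DMSO in blue and Re in red, chosen for large scatter within a group or for shared sequence. Lars2 is at 4267 and 2098 TPM in 2 of the 3 DMSO libraries and at 72.8 TPM or less in the other 4, and the 2 Re libraries low in H2bc23 are the 2 high in H2bc24.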

How the data were processed

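RNA-seq of 6 C2C12 libraries was used, 3 with DMSO and 3 with Ginsenoside Re. The deposited table holds log2 values, log2(TPM + 1) per gene by its name. STAR and RSEM, and the builds GRCh38 and GRCm39 with no stated role, are named per the submitters' processing notes, and other steps were not stated. The other table, 1 library a group and normalized separately, was not used.

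Values were converted back to TPM and lay within 0.0002 of a multiple of 0.01. Each library was divided by the median of its ratios to the gene means, over genes above 0 in all 6 libraries with a mean of at least 5 TPM. Genes that then averaged at least 5 TPM were tested on log2(TPM + 1) with limma 3.58.1 in R 4.3.3 (variance trend, two-sided, Benjamini-Hochberg over all tested genes, threshold 0.05). Replicate numbers were not a term, and the script was tested on simulated data. TPM carries no read depth. The 40 gene lists and the genes described were chosen with earlier results of these data known. Named genes were, by rule, the 10 with the smallest p and the 6 with the largest difference at an unadjusted p below 0.05 in each direction, up to 3 members of each list, the 8 most abundant, the 6 most scattered and a fixed set of muscle and metabolic genes, with predicted genes and small RNAs left out of the first 2 and of the most scattered. A gene that the rule names is not reported here. Lists were described by counts, medians and library means, without a test. Shared sequence is the share of a gene's 50-base stretches found on either strand in transcripts of another gene of GENCODE M21, which need not be the annotation the values were made with. A total of 18 alternatives changed the rescaling, pseudocount, filter, variance model or block, or left out 1 library.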

Additional observations from a re-analysis of the deposited data

How the results depend on the processing

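With all 6 libraries kept, every alternative called 0 genes, and the smallest adjusted p was 0.375. Leaving out 1 library called 0 to 4 genes, among them Lars2 and Snora21 without DMSO replicate 1, H2bc24 without Re replicate 1, mt-Co2 without Re replicate 2 and Rnu12 without Re replicate 3; the rest were predicted genes. Genes at an unadjusted p below 0.05 numbered 216 with a filter of 20 TPM, 947 without a filter and 252 (without Re replicate 2) to 732 (without DMSO replicate 1) with 1 library left out, against 440. Genes without overlap numbered 1450 in the deposited values (1371 higher, 79 lower), 423 with a filter of 20 TPM, 1832 without a filter and 1499 to 2289 with 1 library left out. Intervals inside 1.5-fold numbered 4424 with a filter of 20 TPM, 18656 without a filter and 7474 to 7998 with 1 library left out. Filters and left-out libraries change the number of genes or samples compared, so these counts are not comparable with those of the main fit. Groups of fewer libraries also fail to overlap more often even without a difference. The share higher in Re at an unadjusted p below 0.05, 43.4%, was 93.2% in the deposited values, 50.4% with the factor from genes of at least 50 TPM, 38.0% with a filter of 20 TPM, 56.2% without a filter and 36.8 to 50.8% with 1 library left out.

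Of 89 named genes, 10 changed sign in some alternative. In the deposited values the difference was 0.04 for Tpm2, 0.07 for Tnnt2, 0.00 for Chrna1, 0.05 for Myf5, 0.06 for Nr3c1, 0.07 for Slc2a1, 0.05 for Nfe2l2, 0.08 for Akt1 and 0.07 for Mtor. With 1 library left out it ranged from -0.12 to 0.02 for Tnnt2, -0.08 to 0.01 for Slc2a1, -0.09 to 0.02 for Akt1, -0.31 to 0.13 for Mtor and -0.33 to 2.18 for mt-Co3. The cause was not tested, beyond the shift of 0.108 in the median gene of the deposited values.

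Deviations of same-numbered libraries correlated at 0.18, 0.08 and -0.01, and those of libraries with other numbers at -0.20 to 0.12. Replicate numbers are those of the sample titles, and the deposited column names number the Re libraries otherwise. Whether a number stands for a shared culture or day was not given. The fit with the replicate block called 0 genes, gave 532 at an unadjusted p below 0.05 and put 45.7% of them higher.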
